A study of Mus musculus with 12 samples.

Results

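The 8 genes described here mark basophils and mast cells: Mcpt8, Prss34, Cpa3, Fcer1a, Ms4a2, Gata2, Cd200r3 and Hdc. They were chosen by name, as the rows of the count table whose Ensembl identifier carries one of these symbols. All 8 were found among 45706 genes, and all 8 passed the filter on low counts, as did 15922 genes in all. The table covers 2 kinds of mouse T cell, conventional and regulatory, taken from wild-type mice (WT) and from mice without Coro1a (KO), the gene of the actin-binding protein coronin 1. Each of the 4 groups (WT conventional, KO conventional, WT regulatory, KO regulatory) holds 3 libraries. The labels name no treatment or time point, and the strain, age and organ of the mice and the way the cells were isolated are not given in the sources used here. They also do not say that the replicates are separate animals, so the p-values measure only the spread between these libraries, part of which may be technical.

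Basophils and mast cells are granulocytes that carry the high-affinity receptor for immunoglobulin E (IgE) on their surface. When antigen crosslinks the bound IgE, they release histamine and proteases from granules and produce cytokines such as interleukin-4. Basophils circulate in blood, whereas mast cells mature in tissues under the growth factor that binds the receptor Kit. T cells are not known for a granule programme of this kind, although they share parts of the receptor's signalling machinery. In bulk RNA, fewer cells of a type and less RNA per cell cannot be told apart.

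Levels are given as CPM, edgeR's standard scaling of a gene's reads to the library's total of gene reads, with TMM factors. The libraries held 19686870 to 33404302 such reads, the lowest being WT regulatory replicate 1 and the next lowest holding 29865336. Coro1a lay between 2123 and 2711 CPM in WT libraries and between 20.9 and 47.2 CPM in KO libraries. Cd3e, a chain of the T cell receptor complex, was present in all 12 libraries, from 161 to 523 CPM. Foxp3, the defining factor of regulatory T cells, lay between 443 and 641 CPM in regulatory and between 21.0 and 66.2 CPM in conventional libraries. A pair of libraries stood apart: WT regulatory replicate 3 and KO regulatory replicate 1 held reads of Xist (764 and 576 CPM) together with reads of 4 Y-linked genes (20.2 and 61.2 CPM in sum). Calls that changed without this pair are given with and without it. In the conventional groups, replicates 1 and 2 of both genotypes were high in Xist and replicate 3 held Y-linked reads, so the libraries of a conventional group did not all come from 1 animal. Regulatory libraries outside the pair held Y-linked reads (287 to 308 CPM in sum) and at most 1.51 CPM of Xist. The cell types thus differed in sex-linked make-up as well. Its part in comparisons between them, including the difference of their KO effects, was not tested.

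The genes lie on 8 different mouse chromosomes, so none shares a promoter or a near neighbour with another. The GATA2 protein and its relatives bind DNA with a GATA core, and the 250 bases before each start site were searched for GATAA on both strands. The motif was present in 5 of 9 windows of the 8 genes (55.6%; Gata2 has 2 windows), and in 22.6% of 32851 windows of the same length before all genes. A match is a description of the letters, not of a bound site. Shown here are 4 windows, of Prss34 and Ms4a2, which were low in regulatory libraries, of Cpa3, which was highest there, and of Cd200r3, whose genotypes overlapped in both cell types, from RefSeq (GRCm38.p6), 5′ to 3′ along the gene's strand, with each match in capitals. GATAA marks the gene's strand and TTATC the opposite one. The windows are chr17:25298144-25298393 (plus strand) for Prss34, chr3:20242182-20242431 (minus strand) for Cpa3, chr19:11623720-11623969 (minus strand) for Ms4a2 and chr16:44943428-44943677 (plus strand) for Cd200r3.
Prss34: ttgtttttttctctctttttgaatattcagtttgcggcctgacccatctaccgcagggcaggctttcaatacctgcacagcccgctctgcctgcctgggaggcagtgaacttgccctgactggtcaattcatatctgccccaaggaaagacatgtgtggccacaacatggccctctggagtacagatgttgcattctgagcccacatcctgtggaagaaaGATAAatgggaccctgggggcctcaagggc
Cpa3: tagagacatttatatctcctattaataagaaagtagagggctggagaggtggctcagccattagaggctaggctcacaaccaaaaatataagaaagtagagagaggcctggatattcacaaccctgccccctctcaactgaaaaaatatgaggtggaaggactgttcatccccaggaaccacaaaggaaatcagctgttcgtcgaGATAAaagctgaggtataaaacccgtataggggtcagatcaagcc
Ms4a2: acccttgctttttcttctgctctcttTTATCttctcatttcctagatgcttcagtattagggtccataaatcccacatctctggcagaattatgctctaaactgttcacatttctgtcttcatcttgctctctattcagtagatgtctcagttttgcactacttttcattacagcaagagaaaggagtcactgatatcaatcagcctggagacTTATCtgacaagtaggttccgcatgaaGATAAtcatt
Cd200r3: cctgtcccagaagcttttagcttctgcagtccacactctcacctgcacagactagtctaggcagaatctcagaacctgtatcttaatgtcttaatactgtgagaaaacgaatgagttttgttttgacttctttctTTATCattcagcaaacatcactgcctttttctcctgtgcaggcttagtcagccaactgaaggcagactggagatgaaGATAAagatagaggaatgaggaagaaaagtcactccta
Prss34 and Cpa3 each held 1 match, Cd200r3 held 2 and Ms4a2 held 3. Fcer1a held 1, and no match was found in the windows of Mcpt8, Hdc and Gata2. Start sites here are those of RefSeq, whereas the gene positions given below come from GENCODE vM21. By those positions the Hdc window (chr2:126618679-126618928) and 1 Gata2 window (chr6:88198414-88198663) lie inside their genes. The Mcpt8 window (chr14:56085198-56085447) overlaps the start of its gene.

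The first comparison asks what loss of Coro1a changes in conventional T cell libraries. Of the 8 genes, 7 were higher in KO than in WT conventional libraries, with log2 fold changes from 1.96 (Gata2) to 4.43 (Fcer1a), and in each of the 7 every KO library lay above every WT library. Cd200r3 was the exception and its groups overlapped. The background is wide: 23.3% of all tested genes were called higher and 25.4% lower in this comparison by the same rule, an adjusted p under 0.05 in edgeR's quasi-likelihood test. The median log2 fold change of the 8 genes was 3.68, against -0.05 over all tested genes. Scaling the libraries to 6 T cell genes in place of TMM moved the median of all genes to 0.53 in this comparison, 0.53 between genotypes in regulatory, 0.71 between cell types in WT, 0.62 between cell types in KO libraries and -0.04 for the difference of the KO effects.

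Both specific chains of the IgE receptor rose. Fcer1a (ENSMUSG00000005339, chr1:173221284-173227214, minus strand, GRCm38) encodes the alpha chain, which holds IgE. It stood at 0.0336, 0.0326 and 0.256 CPM in WT conventional replicates 1 to 3 and at 2.47, 1.57 and 3.22 CPM in the KO ones. The WT values rest on 1, 1 and 8 reads, and the KO libraries held 55 to 106. The log2 fold change was 4.43 (SE 0.61; edgeR adjusted p = 0.000183). Without WT conventional replicate 3, the highest of its group, it was 6.03. Ms4a2 (ENSMUSG00000024680, chr19:11615523-11623719, minus strand) encodes the beta chain, which amplifies the receptor's signal. Its WT conventional libraries held 0.504, 0.391 and 0.704 CPM and its KO ones 6.59, 6.55 and 8.57 CPM. Among the 7 genes that rose it had the smallest standard error, with a log2 fold change of 3.75 (SE 0.30; edgeR adjusted p = 5.59e-06).

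The basophil granule proteases followed the same pattern. Mcpt8 (ENSMUSG00000022157, chr14:56082166-56085273, minus strand) encodes a serine protease used as a basophil marker in mice. In conventional cells it lay at 0.269, 0.261 and 0.736 CPM for WT, against 6.07, 3.49 and 6.81 CPM for KO, a log2 fold change of 3.67 (SE 0.63; edgeR adjusted p = 0.000675). Prss34 (ENSMUSG00000056399, chr17:25298394-25300165, plus strand) encodes another basophil serine protease. Its WT conventional values were 0.471, 0.326 and 1.67 CPM and its KO values 14.2, 5.92 and 11.9 CPM, a log2 fold change of 3.69 (SE 0.67; edgeR adjusted p = 0.000973). For both genes replicate 3 was the highest of the WT libraries and replicate 2 the lowest of the KO libraries. Without WT replicate 3 the changes were 4.34 for Mcpt8 and 4.73 for Prss34.

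Cpa3 and Hdc, which supply other granule contents, were also higher. Cpa3 (ENSMUSG00000001865, chr3:20215620-20242181, minus strand) encodes carboxypeptidase A3, a granule enzyme best known from mast cells and also made by basophils. Its conventional libraries held 0.504, 0.261 and 1.06 CPM when WT, against 5.71, 3.17 and 3.59 CPM when KO. The log2 fold change was 2.76 (SE 0.51; edgeR adjusted p = 0.00114), and 3.43 without WT replicate 3. Hdc (ENSMUSG00000027360, chr2:126593667-126619299, minus strand) encodes histidine decarboxylase, which makes histamine. Its WT values of 0.942, 0.945 and 1.18 CPM were close together, whereas the KO values of 29.4, 16.2 and 15.01 CPM were spread by 1 high library, replicate 1. The log2 fold change was 4.30 (SE 0.34; edgeR adjusted p = 5.66e-06).

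Gata2 (ENSMUSG00000015053, chr6:88193891-88207032, plus strand), a transcription factor needed for basophil and mast cell development and for blood stem cells, rose least. Its WT conventional libraries held 2.86, 2.15 and 3.27 CPM and its KO ones 11.9, 8.18 and 12.03 CPM, a log2 fold change of 1.96 (SE 0.46; edgeR adjusted p = 0.00488). Cd200r3 (ENSMUSG00000036172, chr16:44943678-44981380, plus strand) encodes an activating receptor of the CD200 receptor family on basophils and mast cells. Its WT conventional libraries stood at 5.35, 7.46 and 6.98 CPM, and its KO ones, at 5.54, 5.09 and 6.56 CPM, overlapped with them. Its log2 difference was -0.20 (SE 0.25; edgeR adjusted p = 0.521), and 0.40 (adjusted p = 0.356) with T cell gene scaling.

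**Figure D1:**
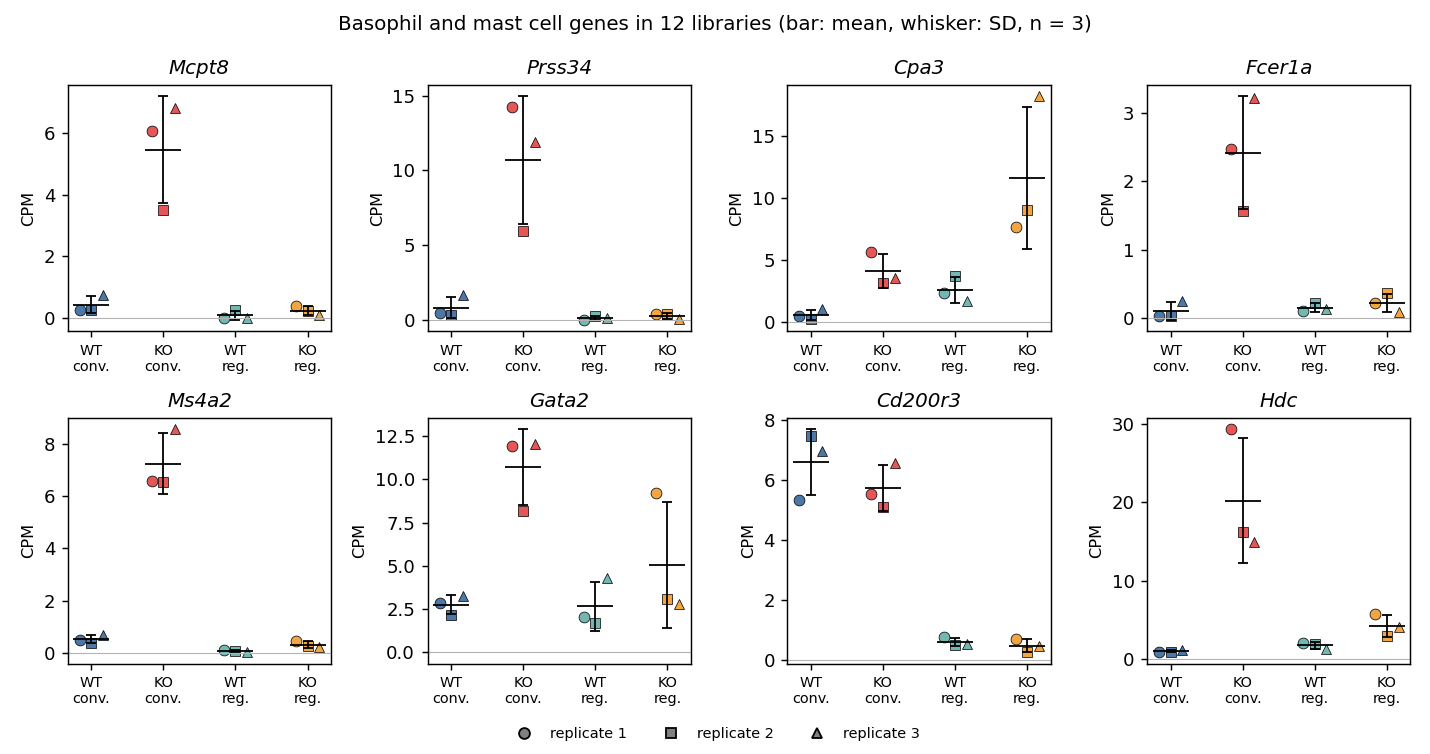
Levels of the 8 genes in CPM (vertical axes, each with its own scale) in the 4 groups; each symbol is a library, its shape the replicate number, the horizontal bar the mean and the whisker the SD (n = 3). In 7 panels the KO conventional libraries lie above the WT conventional ones, Cd200r3 is high in both conventional groups, and Cpa3 is highest in KO regulatory libraries, from 7.69 to 18.3 CPM.

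All 7 increases were called under every alternative setting, including each library left out in turn, with the largest adjusted p at 0.0242 for Gata2 without WT conventional replicate 2. They were present both in the Xist-high libraries (2 per genotype), where the log2 ratios of the mean levels ran from 2.01 for Gata2 to 5.93 for Fcer1a, and in the Y-linked ones (1 per genotype, with no test), where they ran from 1.76 for Cpa3 to 3.66 for Hdc. Together the 8 genes came to 12.9 ± 2.62 CPM among WT conventional libraries, against 66.6 ± 15.9 CPM among KO ones (SD, n = 3). Within the WT conventional group, replicate 3 was the highest library for 7 of the 8 genes. In the KO conventional group the highest was replicate 3 for 5 genes and replicate 1 for 3.

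Genes of other blood cells moved in the same comparison, in which 23.3% of all tested genes were called higher and 25.4% lower. All 15 macrophage and monocyte genes, 11 of 13 neutrophil genes, all 11 NK cell genes, all 12 B cell genes and 10 of 11 dendritic cell genes were higher in KO conventional libraries. The neutrophil sum ranged from 8.90 to 16.2 CPM for WT, against 364 to 729 CPM for KO, and the macrophage and monocyte sum from 391 to 588 and from 2039 to 4334 CPM. Of 9 eosinophil genes, 4 rose, and their sum ranged from 13.1 to 25.6 CPM in WT, where Il5ra held no read, and from 56.4 to 106 CPM in KO libraries. Of 9 blood stem and progenitor genes 6 rose, with sums from 12.3 to 17.0 and from 39.2 to 69.8 CPM. Of 10 megakaryocyte and erythroid genes 6 rose, with sums from 37.2 to 84.9 and from 81.4 to 175 CPM. In the group 2 innate lymphoid list, 6 of 9 tested genes rose, with sums from 93.9 to 123 CPM in WT (Il5 and Calca at 0) and from 193 to 206 CPM in KO libraries (Calca at 0). All 6 T cell genes fell, their sum ranging from 3062 to 3351 CPM for WT, against 1948 to 2315 CPM for KO. The part of these shifts in the result for the 8 genes was not tested.

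In regulatory libraries Cpa3, Ms4a2 and Hdc were called higher in KO, 3 of the 8 genes, where 4.01% of all tested genes were called higher and 3.82% lower. The median log2 fold change of the 8 genes was 1.04, against 0.00 over all tested genes. Mcpt8, Prss34, Fcer1a, Gata2 and Cd200r3 did not pass the test.

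Cpa3 showed the largest of these increases. It stood at 2.38, 3.75 and 1.71 CPM in WT regulatory and at 7.69, 9.04 and 18.3 CPM in KO regulatory replicates 1 to 3, with every KO library above every WT library. The log2 fold change was 2.15 (SE 0.46; edgeR adjusted p = 0.0183). The call was lost without WT replicate 1 (adjusted p = 0.0646), without KO replicate 3 (0.0638) and when only the regulatory groups were fitted (0.0516). It held without both libraries with Xist and Y-linked reads, at 2.13 (adjusted p = 0.0297).

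The regulatory libraries held 2.06, 1.97 and 1.29 CPM of Hdc when WT, against 5.75, 2.93 and 4.13 CPM when KO, without overlap. Its log2 fold change was 1.28 (SE 0.32; edgeR adjusted p = 0.0359). The call was lost when any of the 3 WT libraries or KO replicate 1 or 3 was left out, with adjusted p from 0.0704 to 0.112, and without both libraries with Xist and Y-linked reads (0.81, adjusted p = 0.181), as well as with limma-voom (0.188) and when only the regulatory groups were fitted (0.0848). Ms4a2 was near its detection limit, at 0.108, 0.0969 and 0.0322 CPM for WT, against 0.469, 0.272 and 0.243 CPM for KO. These levels are 1 to 3 reads per WT and 8 to 15 per KO library. Its log2 fold change was 2.07 (SE 0.49; edgeR adjusted p = 0.0281). The call was lost without any single WT library or KO replicate 1, with adjusted p from 0.0517 to 0.0922, and without both libraries with Xist and Y-linked reads (1.31, adjusted p = 0.192), as well as with limma-voom (0.0837).

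The basophil proteases and the IgE-binding chain stayed low in regulatory libraries of both genotypes. Mcpt8 held no read in WT replicates 1 and 3, which allows up to 0.162 and 0.0966 CPM (3 reads, for counting error alone), and 0.258 CPM in WT replicate 2. In KO regulatory libraries it held 0.375, 0.212 and 0.0911 CPM, and the test gave a log2 difference of 1.17 (SE 0.98; edgeR adjusted p = 0.481). Prss34 held 0, 0.258 and 0.129 CPM for WT, against 0.406, 0.363 and 0.0304 CPM for KO (log2 difference 0.85, SE 1.04; edgeR adjusted p = 0.643). Fcer1a held 0.108, 0.226 and 0.129 CPM against 0.219, 0.363 and 0.0911 CPM (0.48, SE 0.72; edgeR adjusted p = 0.714). For all of these the groups overlapped, and the genes received 0 to 13 reads per library. Without both libraries with Xist and Y-linked reads these genes did not pass either, with adjusted p from 0.868 to 0.986.

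Gata2 in regulatory libraries was spread by the same pair of libraries that stood apart. Its WT values were 2.06, 1.68 and 4.28 CPM and its KO values 9.22, 3.08 and 2.82 CPM, with a log2 difference of 0.90 (SE 0.46; edgeR adjusted p = 0.248). Each group's high value was its library with Xist and Y-linked reads, and without both the difference was 0.68 (adjusted p = 0.157). Cd200r3 held 0.758, 0.517 and 0.547 CPM for WT, against 0.719, 0.272 and 0.456 CPM for KO, with a log2 difference of -0.30 (SE 0.33; edgeR adjusted p = 0.601). The groups overlapped for both genes. KO regulatory replicate 1 was the highest library of its group for 6 of the 8 genes, and its macrophage and monocyte sum of 2748 CPM was the highest of the KO regulatory group, whose lowest was 1268 CPM. Over the marker lists, beside 4.01% of all tested genes called higher and 3.82% lower, 4 of 13 neutrophil, 3 of 11 NK cell, 4 of 9 group 2 innate lymphoid and 1 of 9 progenitor genes rose in KO regulatory libraries, while 1 eosinophil and 1 T cell gene fell. The progenitor gene was Kit, and Il1rl1 and Il13 were among the group 2 innate lymphoid genes that rose. These genes are counted again below among the basophil and mast cell lists. The neutrophil sum ranged from 64.6 to 122 CPM for WT, against 128 to 310 CPM for KO, and the group 2 innate lymphoid sum from 136 to 181 and from 176 to 295 CPM. The part of these contents in the values of the 8 genes was not tested. The sum of the 8 genes was 8.11 ± 0.643 CPM for WT regulatory libraries, against 22.5 ± 5.20 CPM for KO ones (SD, n = 3).

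Between cell types, Cpa3 was the 1 gene of the 8 called higher in regulatory libraries of either genotype. In WT libraries Cpa3 was higher and Prss34, Ms4a2 and Cd200r3 were lower in regulatory than in conventional libraries, 1 gene up and 3 down, where 39.1% of tested genes were called higher and 33.3% lower. In KO libraries all 8 genes were called, Cpa3 higher and the other 7 lower, against 36.1% of tested genes called higher and 31.7% lower. The median log2 difference of the 8 genes was -1.05 in WT (all tested genes 0.07) and -3.49 in KO libraries (all tested genes 0.03). Both comparisons use the libraries already described.

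Cpa3 was 2.10 higher on the log2 scale in WT regulatory than in WT conventional libraries (SE 0.52; edgeR adjusted p = 0.0034). In KO it was 1.49 higher (SE 0.44; edgeR adjusted p = 0.0101), a call that was lost without KO regulatory replicate 3 (1.01, adjusted p = 0.0605). Its regulatory libraries lay above its conventional ones in both genotypes. Without WT conventional replicate 3 the WT difference was 2.76. Cd200r3 went the other way by a similar amount in both genotypes, with differences of -3.46 in WT (SE 0.30; edgeR adjusted p = 1.09e-06) and -3.56 in KO (SE 0.30; edgeR adjusted p = 1.35e-06).

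The proteases and the receptor chains were far lower in KO regulatory than in KO conventional libraries. Prss34 differed by -5.31 (SE 0.76; edgeR adjusted p = 7.48e-05), Mcpt8 by -4.57 (SE 0.67; adjusted p = 9.58e-05) and Ms4a2 by -4.45 (SE 0.32; adjusted p = 4.34e-07) on the log2 scale. Fcer1a differed by -3.41 (SE 0.55; edgeR adjusted p = 0.000186), and by -4.01 without KO regulatory replicate 2. Hdc differed by -2.24 (SE 0.30; adjusted p = 5.01e-05). For each of these the KO regulatory libraries all lay below the KO conventional ones. Gata2 overlapped between the groups and was called at -1.09 (SE 0.45; edgeR adjusted p = 0.0475). It no longer passed once KO conventional replicate 1 or 3, or KO regulatory replicate 2 or 3, was left out (adjusted p from 0.105 to 0.156), with RLE factors (0.0543), with T cell gene scaling (0.596) and when only the groups compared were fitted (0.073); without KO regulatory replicate 1 the difference was -1.85.

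In WT libraries, Ms4a2 differed by -2.77 between regulatory and conventional cells (SE 0.46; edgeR adjusted p = 0.000209) and Prss34 by -2.47 (SE 0.91; adjusted p = 0.0284). The Prss34 call was lost without WT conventional replicate 3 (-1.43, adjusted p = 0.183), without WT regulatory replicate 1 (0.0738) or 3 (0.0779), with T cell gene scaling (0.0846), with limma-voom (0.163) and without both libraries with Xist and Y-linked reads (0.0852), and the difference was -3.32 without WT regulatory replicate 2. Mcpt8 lay lower in every WT regulatory library (-2.07, SE 0.91; edgeR adjusted p = 0.0574), and Hdc lay higher in every one (0.77, SE 0.35; adjusted p = 0.0656), without passing the threshold. For Mcpt8 the gap was narrow: WT regulatory replicate 2 held 0.258 CPM and WT conventional replicate 2 held 0.261 CPM, 8 reads each. Mcpt8 and Hdc passed with DESeq2 (adjusted p = 0.0203 and 0.041). Mcpt8 also passed with limma-voom (-2.97, adjusted p = 0.0418), with no filter (0.0438) and without WT regulatory replicate 2 (0.0048), which left no read in its WT regulatory group. Hdc also passed with T cell gene scaling (1.39 beside a median of 0.71 over all genes, adjusted p = 0.00773), when only the groups compared were fitted (0.0279), without WT regulatory replicate 3 (0.97, adjusted p = 0.0424) and without both libraries with Xist and Y-linked reads (0.97, adjusted p = 0.033). Fcer1a (0.54; edgeR adjusted p = 0.563) and Gata2 (-0.03; adjusted p = 0.954) overlapped, and the sign for Gata2 turned under several settings. Regulatory libraries also differed in their other contents: B cell genes came to 5051 ± 1026 CPM for WT regulatory and 5367 ± 634 CPM for KO regulatory libraries, against 6.71 ± 1.03 and 49.5 ± 16.2 CPM in the conventional ones (SD, n = 3). Megakaryocyte and erythroid genes came to 4751 ± 1761 and 4808 ± 694 CPM in the regulatory groups, against 56.4 ± 25.1 and 141 ± 51.8 CPM. The part of these contents in the differences between cell types was not tested.

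**Figure D2:**
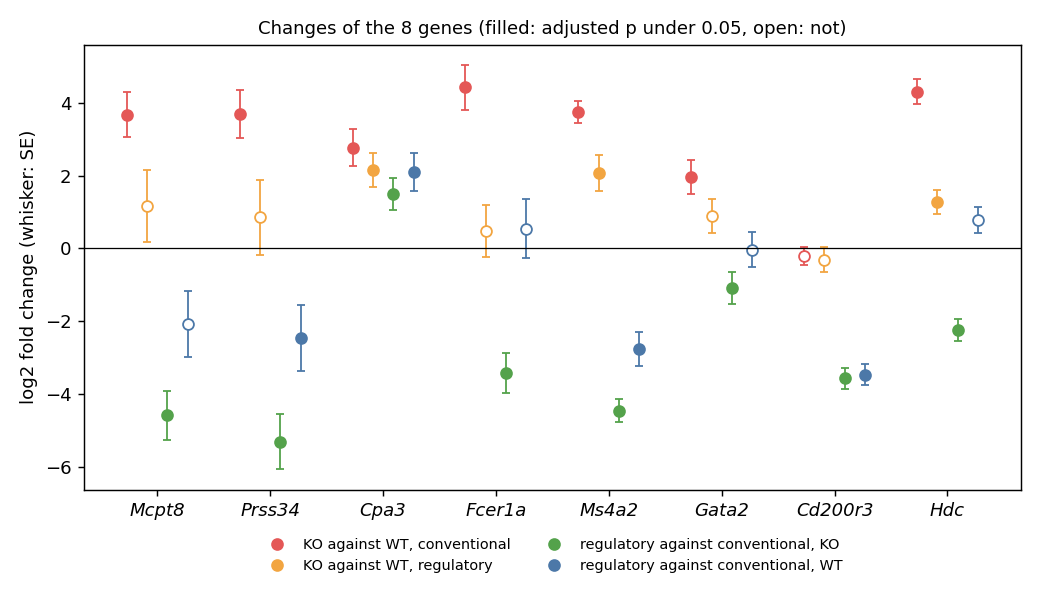
Log2 fold changes of the 8 genes (vertical axis; whiskers are the SE) in 4 comparisons, filled where the edgeR adjusted p was under 0.05. The KO effect in conventional libraries lies between 1.96 and 4.43 for 7 genes and near 0 for Cd200r3, and Cpa3 is the gene with 4 filled symbols above 0.

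Whether the KO effect differed between the cell types was tested directly as the KO effect in regulatory minus that in conventional libraries. Fcer1a and Hdc passed, both in the negative direction, 2 of the 8 genes, where 8.86% of tested genes were called positive and 12.4% negative. For Fcer1a the difference was -3.95 (SE 1.00; edgeR adjusted p = 0.0174), and its call was lost without WT regulatory replicate 2 (-3.55, adjusted p = 0.0754). Without WT conventional replicate 3 it was -5.55. For Hdc the difference was -3.02 (SE 0.46; edgeR adjusted p = 0.00143), and it was called with each library left out in turn. The differences for Prss34 (-2.84; edgeR adjusted p = 0.149), Mcpt8 (-2.50; 0.193), Ms4a2 (-1.68; 0.103) and Gata2 (-1.06; 0.275) did not pass. Without KO regulatory replicate 1 alone, the Gata2 difference was -1.82 and passed (adjusted p = 0.0203). Those for Cpa3 (-0.61, SE 0.67; edgeR adjusted p = 0.563) and Cd200r3 (-0.10, SE 0.41; 0.892) were smaller than their standard errors. Without both libraries with Xist and Y-linked reads 4 genes were called, Ms4a2 (-2.44, adjusted p = 0.0352) and Gata2 (-1.28, adjusted p = 0.0245) being added.

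The order of the genes by level, per kilobase of annotated exon (GENCODE vM21), differed between groups. In KO conventional libraries Prss34 was highest at 8.76 ± 3.52 CPM per kilobase, followed by Mcpt8 at 5.46 ± 1.75 and Hdc at 3.16 ± 1.25 (SD, n = 3). Cpa3 (2.74), Ms4a2 (2.57), Fcer1a (2.42) and Gata2 (1.99 ± 0.408) came next, and Cd200r3 was lowest at 0.958 ± 0.126. The ranges of mean ± SD of neighbours in that order overlapped except for Gata2 and Cd200r3. In WT conventional libraries Cd200r3 came first at 1.10 ± 0.185 CPM per kilobase, before Prss34 at 0.673 ± 0.602 and Gata2 at 0.511 ± 0.105, and Fcer1a was last at 0.108 ± 0.129. There the ranges of all neighbours overlapped.

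In both regulatory groups Cpa3 led by a wide margin. It stood at 1.72 ± 0.686 CPM per kilobase in WT and 7.69 ± 3.79 in KO regulatory libraries, above Gata2, which was next at 0.495 ± 0.261 and 0.934 ± 0.670 (SD, n = 3). Hdc followed at 0.277 ± 0.0659 and 0.668 ± 0.221. In WT the ranges of mean ± SD overlapped for all neighbours after Cpa3, and in KO all but those of Hdc and Mcpt8. The other 5 genes lay between 0.0281 and 0.155 CPM per kilobase in WT and between 0.0806 and 0.226 in KO regulatory libraries.

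As shares of the reads in the 8 genes, Cd200r3 held 52.0 ± 9.89% when WT and conventional, and 8.87 ± 1.84% when KO and conventional (SD, n = 3), while its CPM overlapped. Hdc held 8.03 ± 0.571% in WT and 30.1 ± 7.09% in KO conventional libraries. Cpa3 kept a small share in conventional libraries, 4.50 ± 2.23% in WT and 6.20 ± 0.843% in KO, and held 31.9 ± 10.9% in WT and 51.8 ± 19.6% in KO regulatory ones. The regulatory libraries were uneven in both genotypes. In WT, Cpa3 held 31.9%, 42.8% and 21.0% in replicates 1 to 3 and Gata2 held 27.5%, 19.2% and 52.8%, so that Gata2 led in replicate 3. In KO, Cpa3 held 30.9% in replicate 1, 54.7% in replicate 2 and 69.9% in replicate 3, and Gata2 held 37.1%, 18.6% and 10.8%. Mcpt8 and Prss34 each held at most 2.95% in any regulatory library.

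**Figure D3:**
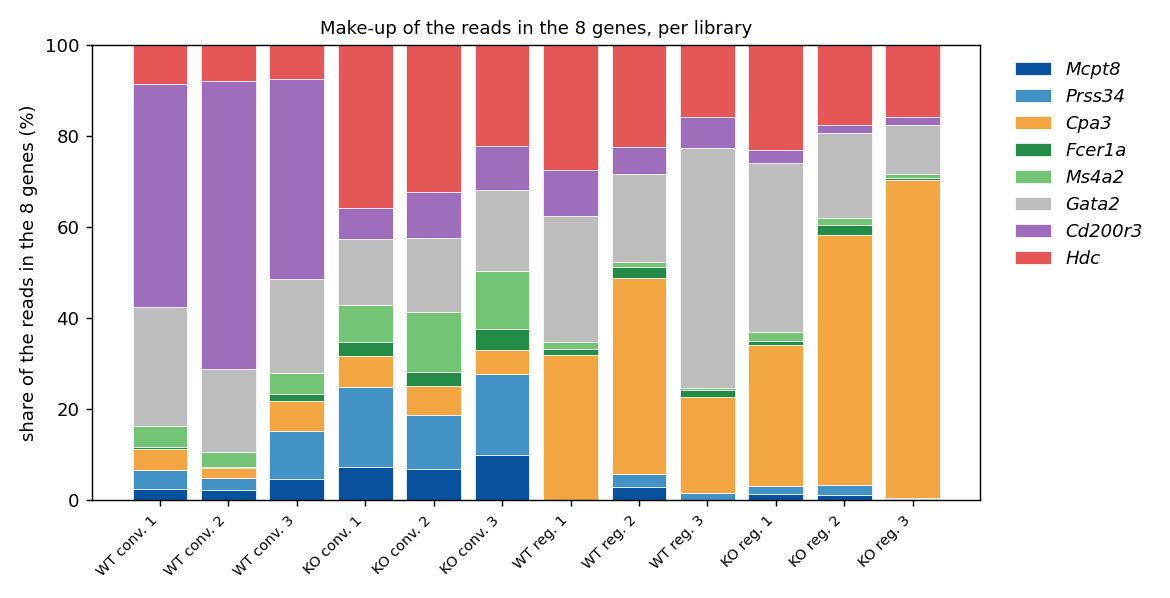
Share of the reads in the 8 genes that each gene held (vertical axis, percent), 1 bar per library. Cd200r3 makes up 44.0 to 63.1% in WT conventional libraries, KO conventional libraries divide into many genes, and Cpa3 makes up 21.0 to 69.9% in regulatory libraries.

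Other genes of basophils and mast cells, 32 in all and all tested, moved with the 8 in conventional libraries. There, 24 were higher in KO and 1 was lower, with a median log2 fold change of 2.16, beside 23.3% of all tested genes called higher and 25.4% lower. Such a rise was not particular to this list. Apart from the T cell genes (-0.55), the medians of the other blood cell lists ran from 1.43 (megakaryocyte and erythroid) to 5.24 (neutrophil). The 4 with the highest mean level that the rule named were Stat5b, Runx1, Stat5a and Fcer1g. Of these only Fcer1g passed: the gamma chain of the IgE receptor, shared with Fc receptors of other cells, stood at 12.5, 20.1 and 15.6 CPM for WT, against 111, 77.0 and 159 CPM for KO (log2 fold change 2.85, SE 0.31; edgeR adjusted p = 3.48e-05). Stat5b (-0.09), Stat5a (-0.08) and Runx1 (0.04), which T cells also express, did not pass. Il3ra, the interleukin-3 receptor chain, rose by 0.52 (edgeR adjusted p = 0.00513) and Il4, the cytokine interleukin-4, by 2.18 (adjusted p = 0.00114). Grm6, singled out after its values were seen as the 1 gene that fell, ranged from 2.63 to 4.94 CPM for WT, against 1.43 to 1.82 CPM for KO (-1.21; edgeR adjusted p = 0.00343, and 0.185 with T cell gene scaling).

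In regulatory libraries 5 of these 32 genes were higher in KO, with a median log2 fold change of 0.30, beside 4.01% of all tested genes called higher. They lie outside the naming rule and are given because they are few. Il6, a cytokine, held 0, 0.162 and 0.161 CPM for WT, against 2.19, 0.998 and 2.64 CPM for KO (3.96, SE 0.65; edgeR adjusted p = 0.00634). Il13, a cytokine of allergic inflammation, rose by 3.13 (adjusted p = 0.0125), Alox5, a leukotriene enzyme, by 1.35 (0.0214), Il1rl1, the interleukin-33 receptor, by 0.99 (0.0269) and Cd63, a granule membrane protein, by 0.84 (0.0433). Il6 was called under every setting, Il13 under all but the fit of only the groups compared (0.0558), and each of the other calls was lost with several single libraries left out: Alox5 without WT replicate 1 or 2 or KO replicate 1 or 3 (adjusted p up to 0.083), Il1rl1 without WT replicate 1 or 3 or KO replicate 2 or 3 (up to 0.09), and Cd63 without WT replicate 1 or 2 or any KO library (up to 0.145). These calls were also lost when only the groups compared were fitted (adjusted p = 0.0674 for Alox5, 0.0796 for Il1rl1 and 0.0572 for Cd63). Without both libraries with Xist and Y-linked reads Alox5 (0.0611) and Cd63 (0.0766) did not pass, and with limma-voom Alox5 did not (0.0588). Fcer1g (0.75; edgeR adjusted p = 0.129), Il3ra (0.16; 0.436) and Il4 (1.15; 0.11) did not pass there, although each passed with T cell gene scaling.

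**Figure D4:**
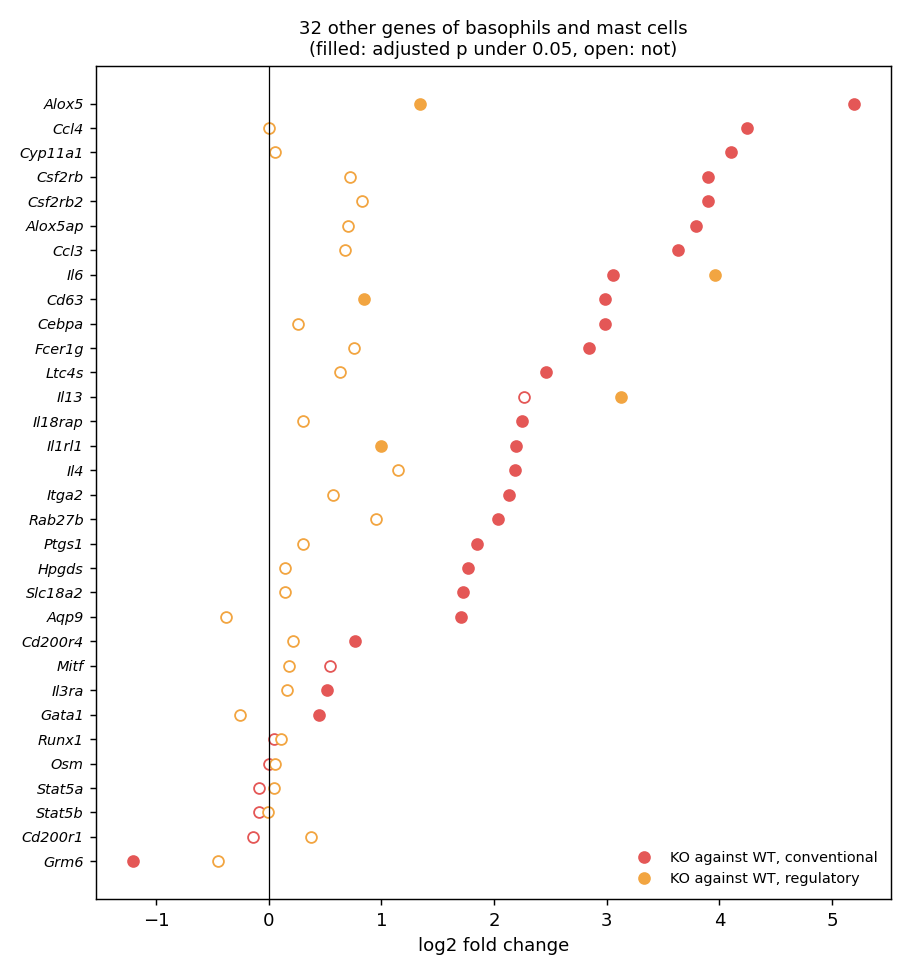
Log2 fold changes of KO against WT (horizontal axis) for the 32 other basophil and mast cell genes, 1 row per gene, in conventional and in regulatory libraries; filled symbols passed the test. In conventional libraries 24 filled symbols lie above 0 and 1 below, and in regulatory libraries 5 lie above 0.

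Of 17 genes of IgE receptor signalling, 8 rose and 4 fell in KO conventional libraries, with a median log2 fold change of 0.02. Over all tested genes 23.3% rose and 25.4% fell, so the share that fell was near the background. The genes that rose, outside the naming rule except Fcer1g, changed more than those that fell, apart from Inpp5d (0.26). They were Plcg2 (3.57), Lat2 (3.21), Gab2 (2.99), Syk (2.98), Fcer1g (2.85), Lyn (2.81) and Btk (2.61). Lat, an adaptor that T cells use behind their own receptor, fell by 0.70 (edgeR adjusted p = 0.00621) and Plcg1, its phospholipase partner, fell by 0.38 (adjusted p = 0.00302). Stim1 (-0.51) and Grap2 (-0.43), outside the naming rule, fell as well. Ptpn6, a phosphatase (-0.11), and Lcp2, an adaptor (0.02), did not pass. In regulatory libraries 1 of the 17 rose and 2 fell, where 4.01% of all tested genes rose and 3.82% fell. Inpp5d, Fyn and Grap2, which lie outside the naming rule, changed by 0.37, -0.45 and -0.46 (edgeR adjusted p = 0.0122, 0.0117 and 0.014).

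Genes of mature mast cells differed widely in level. Of 15 listed proteases and receptors 7 were tested, and 5 of these rose in KO conventional and 2 in KO regulatory libraries. Over all tested genes 23.3% rose in KO conventional and 4.01% in KO regulatory libraries. The 5 were Kit, Cma1, Srgn, Mcpt4 and Tpsb2. Mcpt4 and Tpsb2, outside the naming rule, rose by 4.31 and 2.67 (edgeR adjusted p = 0.00446 and 0.00756), to at most 0.609 and 0.715 CPM in KO conventional libraries. Kit, the receptor for stem cell factor on mast cells and blood progenitors, held 4.88, 4.11 and 5.41 CPM in conventional libraries of WT, against 29.5, 17.4 and 21.6 CPM of KO (2.25, SE 0.24; edgeR adjusted p = 3.00e-05). In regulatory libraries it stood at 9.09, 12.1 and 17.3 CPM for WT, against 42.2, 37.4 and 40.8 CPM for KO (1.64, SE 0.23; edgeR adjusted p = 0.00322), called under every setting. Cma1, a chymase, rose from 0.195 ± 0.0837 to 5.26 ± 1.62 CPM in conventional libraries (SD, n = 3; log2 fold change 4.72, edgeR adjusted p = 2.45e-05). In regulatory libraries its change was 1.77 (edgeR adjusted p = 0.0547; DESeq2 0.018). Tph1, the serotonin-making enzyme of mast cells and of other cells, lies outside the naming rule: its regulatory libraries held at most 0.108 CPM when WT, against 1.53, 1.87 and 3.01 CPM when KO (edgeR adjusted p = 0.00155), and at most 0.0554 CPM in conventional ones.

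Several mast cell genes had no read in a whole group. In WT conventional libraries these were Mcpt9, Cma2, Tpsg1, Mrgprb1 and Mrgprb2, and in KO conventional libraries Mcpt1 and Mcpt9. In WT regulatory libraries they were Mcpt9, Cma2, Tpsab1, Tpsg1, Mrgprb1 and Mrgprb2, and in KO regulatory libraries Mcpt9, Cma2, Tpsab1 and Mrgprb1. Srgn, the granule proteoglycan with the highest level of the list and common to many leukocytes, rose by 0.39 in KO conventional libraries (edgeR adjusted p = 0.00536) and differed by -0.08 in regulatory ones (adjusted p = 0.636).

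Beside Hdc, all 5 tested genes of histamine receptors and breakdown were higher in KO conventional libraries, where 23.3% of all tested genes were. Hnmt, which breaks histamine down, rose by 2.45 (edgeR adjusted p = 0.00765), Slc22a3, a transporter that takes up histamine, by 1.63 (0.000691), Hrh4, a receptor of leukocytes, by 0.96 (0.0485) and Hrh2, another receptor, by 0.49 (0.00583). For Hrh4 the groups overlapped, with KO replicate 2 at 0.629 CPM and WT replicate 1 at 0.639 CPM. The levels of these genes stayed low, the list summing to 10.8 to 12.7 CPM for WT, against 19.4 to 26.0 CPM for KO. In regulatory libraries these 4 genes did not pass (edgeR adjusted p from 0.184 for Hnmt to 0.785 for Hrh2). Hnmt passed with T cell gene scaling (0.0456), where the median of all genes was 0.53. Of the growth factors and IgE genes 6 of 8 were tested, and 4 were higher in KO conventional and 2 in KO regulatory libraries. Over all tested genes 23.3% and 4.01% were called higher there. Il3, the basophil growth factor, held no read in any of the 12 libraries, which allows up to 0.00802 CPM over all of them together. Csf2, a related cytokine, rose by 1.88 in conventional (edgeR adjusted p = 0.00229) and 1.38 in regulatory libraries (adjusted p = 0.0319), and Kitl, the ligand of Kit, rose by 1.83 in conventional ones (0.0227). Fcer2a, the low-affinity IgE receptor of B cells, lay between 242 and 353 CPM in regulatory and at most at 2.37 CPM in conventional libraries, where it rose by 4.30 in KO (edgeR adjusted p = 0.0029). Crlf2, a receptor chain for thymic stromal lymphopoietin, differed by -0.06 and 0.00 between genotypes in conventional and regulatory libraries (edgeR adjusted p = 0.729 and 0.998). Il33, outside the naming rule, was the other gene that rose in regulatory libraries (1.71; edgeR adjusted p = 0.0309), and both regulatory calls were lost with single libraries left out, Csf2 without WT replicate 1 or 3 or KO replicate 2 or 3 (adjusted p up to 0.1) and Il33 without any WT library or KO replicate 1 or 3 (up to 0.111). They were also lost when only the groups compared were fitted (adjusted p = 0.0887 for Csf2 and 0.054 for Il33) and without both libraries with Xist and Y-linked reads (0.0682 and 0.112).

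The genes most like the 8 in pattern were found by the smallest root mean square difference between a gene's centred log2 CPM and the mean of the 8 genes, over the 12 libraries. Rab44, a member of the Rab GTPase family, came first at 0.342, with 1.503 ± 0.298 CPM in WT conventional, 14.7 ± 3.88 in KO conventional, 0.804 ± 0.298 in WT regulatory and 1.88 ± 0.595 in KO regulatory libraries (SD, n = 3). Csrp3 (0.420), the unnamed gene ENSMUSG00000084956 (0.469), AI839979 (0.489), Scnn1a (0.503), Dnah12 (0.509), Fam184a (0.509), Klrk1 (0.523), Fgf6 (0.526) and 1700006J14Rik (0.544) followed. Klrk1, an NK cell and T cell receptor, was the most abundant of them at 73.7 ± 18.1 CPM in KO conventional libraries (SD, n = 3). Others were scarce. Csrp3 held 2 reads in WT conventional, 66 in KO conventional, 1 in WT regulatory and 4 in KO regulatory libraries. Fgf6 held 2, 34, 0 and 1 in the same order. The likeness of Csrp3 and Fgf6 thus rests mostly on reads of the KO conventional group. Among the 8 genes themselves Fcer1a was nearest to their mean at 0.610 and Hdc next at 0.764. Cd200r3 (1.51) and Cpa3 (1.89) were the farthest, with 7523 and 13551 tested genes closer to the mean than they were.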

How the data were processed

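Polyadenylated RNA was sequenced in 12 libraries, 3 per group, with a stranded kit per the labels. The authors deposited raw read counts per Ensembl gene, with STAR and the GRCm38 build named in the submitters' processing notes; the annotation release is not given in the sources used here. Reads that the table tallies as belonging to no gene (4 tallies) were left out. The 19686870 to 33404302 gene counts per library limit precision for genes with a few reads each. Symbols were matched for 45143 of 45706 identifiers, and positions and exon lengths come from GENCODE vM21 (GRCm38). Mcpt8 and Cpa3 overlap a microRNA gene on their own strand.

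A single model of the 12 libraries, with group as its factor, was fitted in R 4.3.3 with edgeR 4.0.16 (filterByExpr with minimum count 10 and minimum total 15, TMM, quasi-likelihood F test, two-sided, Benjamini-Hochberg adjustment over 15922 genes, threshold 0.05). Standard errors were derived from the log2 change and its F value, and the biological coefficient of variation was 0.155. The 5 comparisons were KO against WT in each cell type, regulatory against conventional cells in each genotype, and the difference of the KO effects. A run on simulated data tested the fit. Alternatives were RLE and upper-quartile factors, scaling to Cd3d, Cd3e, Cd3g, Cd5, Cd6 and Lat, DESeq2 1.42.0, limma-voom (limma 3.58.1), no filter, at least 1 CPM in 3 libraries, a replicate block, fits of only the groups compared, a threshold of 0.01 and each library left out. Leaving out both libraries with Xist and Y-linked reads (each above 10 CPM) was chosen after seeing the data. Figures used Python 3.11.15 and matplotlib 3.10.9.

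The 8 genes and all lists were chosen with earlier results of these data known. Named genes are the 8, Coro1a, Kit, Fcer1g, Il3ra, Il4, Il3, the 10 genes most like the 8 (prior count 2) and up to 4 genes per list with the highest mean CPM among those tested, of which some are not described. The lists were other basophil and mast cell genes, IgE receptor signalling, mast cell proteases and receptors, histamine receptors and breakdown, growth factors and IgE, and markers of eosinophils, neutrophils, macrophages and monocytes, dendritic cells, NK cells, group 2 innate lymphoid cells, B cells, megakaryocytes and erythroid cells, blood stem and progenitor cells and T cells. Several lists share genes, and T cells express some of them.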

Additional observations from a re-analysis of the deposited data

Results flagged for a closer look

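The KO effect differed between the cell types for 2 of the 8 genes by a direct test of the difference in edgeR. For Fcer1a the effect in regulatory libraries minus that in conventional libraries was -3.95 on the log2 scale (adjusted p = 0.0174), and for Hdc it was -3.02 (adjusted p = 0.00143). The Fcer1a call was lost without WT regulatory replicate 2 (adjusted p = 0.0754), whereas the Hdc call held with each library left out in turn. Fcer1a passed the filter on low counts through the KO conventional group, in which it was highest.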

How the results depend on the processing

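In KO against WT conventional libraries 7 genes were called under every setting. In regulatory libraries the 3 calls became 1 with limma-voom, 0 in edgeR when only the groups compared were fitted, where Mcpt8, Prss34, Fcer1a and Ms4a2 did not pass the filter, 0 in edgeR at a threshold of 0.01 (3 at an unadjusted p under 0.05, and 3 with DESeq2 at 0.05), 1 without both libraries with Xist and Y-linked reads, and 0 to 3 with each library left out; the counts of members called between cell types moved by at most 1.5 times under the settings run. For the difference of the KO effects the 2 calls became 1 at 0.01, 4 without both libraries, and 1 to 3 with each library left out. The summed level was 8.50 CPM in WT conventional and 34.3 CPM in KO regulatory libraries with T cell gene scaling. Without Hdc it was 46.4 CPM in KO conventional and 6.34 CPM in WT regulatory libraries.

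Signs turned for values that had not passed the test. Gata2 between cell types in WT was 0.00223 with upper-quartile factors, 0.69 with T cell gene scaling, 0.00942 when only the groups compared were fitted, and -0.57 to 0.23 with each library left out. With T cell gene scaling Cd200r3 was 0.40 in conventional and 0.27 in regulatory libraries, and Grm6 was 0.084 in regulatory ones. With each library left out the difference of the KO effects ran from -0.49 to 0.13 for Cd200r3 and from -3.17 to 2.16 for Mcpt8, whose WT regulatory libraries were then at 0 reads, and the KO effect in regulatory libraries from -0.041 to 0.87 for Fcer1a. That of Il33 in conventional libraries, whose WT libraries held no read, ran from 0 to 2.21. Without both libraries Mcpt8 in regulatory libraries was -0.051. Except where fewer libraries or a stricter threshold explain a count, the cause was not tested. Mcpt8, Prss34 and Fcer1a between cell types in WT gave no value when only the groups compared were fitted, since they did not pass the filter there.

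Replicate numbers were not treated as pairs in the main fit. The correlations of same-numbered libraries ran from -0.518 to 0.176 and exceeded 0.1 for every pair in none of the comparisons. They cannot exclude a pairing, since each rests on deviations from the mean of a few libraries. In the conventional groups same-numbered libraries of the 2 genotypes also matched in sex-linked reads. With the replicate block, Ms4a2 in regulatory libraries (2.05, adjusted p = 0.0514) and Prss34 between cell types in WT (-2.34, adjusted p = 0.0534) were no longer called and Hdc there was (0.77, adjusted p = 0.0351). Il1rl1 (adjusted p = 0.0543), Csf2 (0.065) and Il33 (0.0612) also lost their regulatory calls with it. Mcpt8 received at most 12 reads per regulatory library, and how far depth limits its comparisons was not tested.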
